A study of Mus musculus with 16 samples.

Results

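The comparison described here is the response of inguinal white fat of wild-type mice to rosiglitazone, a thiazolidinedione drug that activates the nuclear receptor PPARg. It rests on 4 of the 16 RNA-seq libraries of the series, chosen by their labels: the 2 libraries of inguinal fat (iWAT) from WT mice given rosiglitazone and the 2 from WT mice given vehicle, set against each other in pairs by replicate number. Both groups were homozygous for the WT allele, ate chow for 10 weeks and then a diet with 60% of calories from fat for 19 weeks, and were gavaged for 1 week, the treated group with rosiglitazone at 10 mg/kg in 1% methylcellulose and the other with 1% methylcellulose alone. The labels give no strain, sex or age beyond these weeks, do not place the gavage week within or after the 19 weeks, and do not say whether the libraries of a group are separate mice, so each p-value sets a difference against the scatter of libraries, some or all of which may be technical. The rest of the series holds rosiglitazone and vehicle groups of iWAT from mice homozygous for PPARg-K107R and of epididymal fat (eWAT) from both genotypes. Each group again has 2 libraries, and in K107R a SUMO-accepting lysine of the receptor is replaced by arginine. All 16 libraries enter 1 fit and so share the estimate of spread behind every p-value, and K107R iWAT and WT eWAT are also used to test where the WT iWAT response differed.

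PPARg is the master regulator of the fat cell. It pairs with a retinoid X receptor (RXR) on DNA and, once a fatty acid or a drug such as rosiglitazone fills its pocket, recruits coactivators to genes of fatty acid uptake, triglyceride storage and, in inguinal fat, mitochondrial and brown-fat-like function. Inguinal fat is a subcutaneous depot that in mice surrounds the inguinal lymph node, so dissected pads can carry lymphocytes as well as fat cells, vessels, macrophages and fibroblast-like progenitors.

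Values are FPKM, read levels scaled by the authors for transcript length and library size. The table lists 14023 genes. Lpl, Car3, Scd1 and Fabp4 were left out, because these 4 abundant genes are listed at 0 in whole groups of libraries, and the 13665 genes that reached 1 FPKM in 2 or more of the 16 libraries were tested. Read counts are not given, so depth is unknown. Of fat cell genes, adiponectin, Adipoq, was between 2027 and 2734 FPKM in all 4 libraries, while Fabp4, Car3 and Scd1 were listed at 0 in all 4, and Lpl was listed at 0 in both rosiglitazone libraries, against 2246 and 1081 FPKM in vehicle libraries. The iWAT libraries numbered 2 stood apart from those numbered 1. Their median FPKM was 5.36 to 6.32, against 9.24 to 9.59 in number 1, and the transcript of beta-actin, Actb, was at 21.7 to 39.5 FPKM, against 771 to 874 FPKM. Within WT iWAT the median absolute log2 difference between numbers was 0.401 with rosiglitazone and 0.466 with vehicle, and that between rosiglitazone and vehicle was 0.157 within number 1 and 0.170 within number 2. Each gene was therefore compared within numbers.

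After 1 week of rosiglitazone, WT inguinal fat held more transcript of genes that take up, store and burn fatty acids, and less of many genes of mural cells, matrix and acute phase proteins and of the monocyte chemokines Ccl2 and Ccl7. Of 13665 genes, 826 were higher with rosiglitazone (6.04%) and 675 were lower (4.94%) at an adjusted p under 0.05 (limma on log2(FPKM + 1) with the replicate number as a block, Benjamini-Hochberg adjustment over all tested genes). A gene past that threshold is said below to have risen or fallen. All 1501 (11%) moved the same way in both pairs. The blocked test selects for such agreement, so it adds no separate support. Of the 1501, 1217 had libraries that did not overlap between treatments, beside 14.5% of all tested genes that lay apart with rosiglitazone higher and 9.42% with it lower. Log2 changes of 1 or more were seen in 68 genes and of -1 or less in 76, and the median over all tested genes was 0.03. Without the replicate block the same threshold gave 123 higher and 105 lower genes, all 228 of them among the 1501. Rescaling each library to a common level gave 1096 higher and 1215 lower. Among the 1501 are 3 short RNA genes listed at 0 in both libraries of a treatment, for which no fold is given: Mir6974 was at 314 and 286 FPKM with rosiglitazone and Mir1893 at 186 and 125 FPKM, both listed at 0 with vehicle, and Mir1892 was listed at 0 with rosiglitazone, against 3486 and 122 FPKM with vehicle. With 1 library left out the count was 634 without rosiglitazone library 1, 532 without rosiglitazone library 2, 402 without vehicle library 1 and 435 without vehicle library 2.

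Of 137 genes taken by the naming rule that rose or fell, 40 also passed both without the block and in all 4 fits that left out a library. Among the largest changes these were Rbp7, Ephx2, Elovl3, Acaa1b, Chrna2, Reep6, Ehhadh and Glycam1, which rose, and Thbs1, Ccl2, Apln, Hr, Tph2 and Kcnj8, which fell. Other risers among the 40 were Acacb, Acadvl, Agpat2, Blk, Cidec, Cox8b, Cyp4b1, Gpd1, Hadha, Hadhb, Irs2 and Pcx. The others that fell were Acta1, C4b, Col4a1, Fbn1, Gzma, Hilpda, Mogat2, Nos2, Pdgfrb, Serpina3n, Tie1 and Tuba1a.

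**Figure D1:**
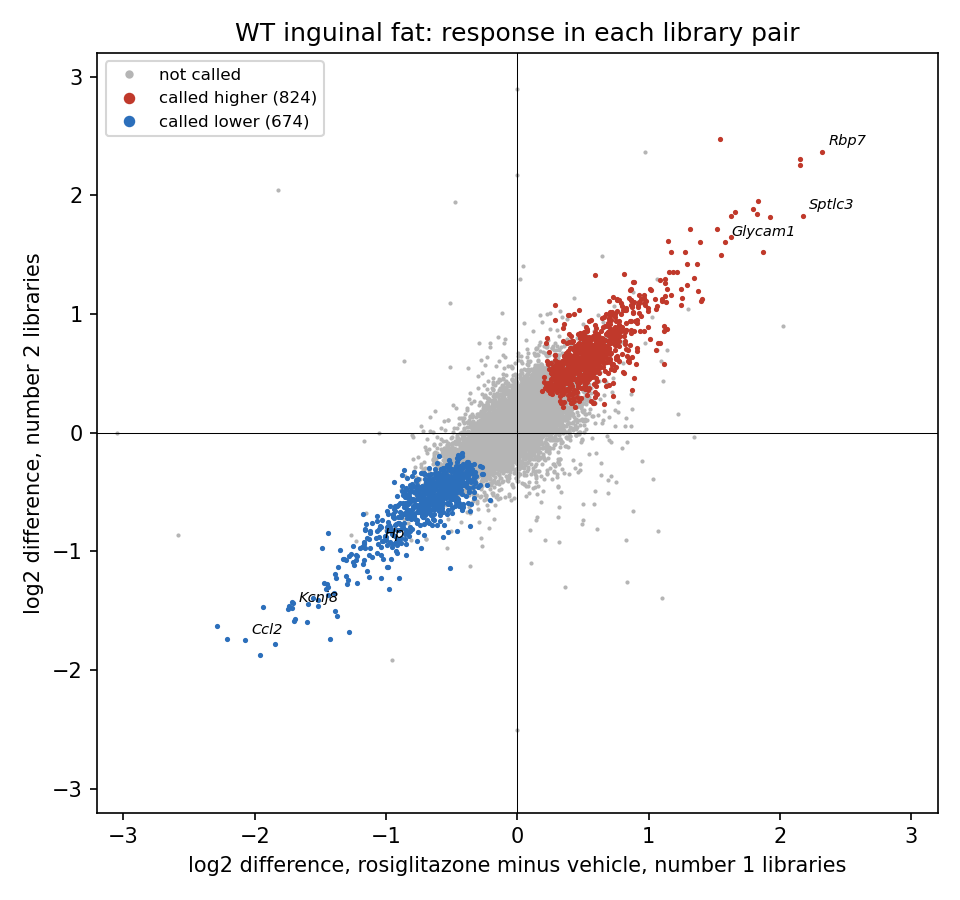
Log2 difference between rosiglitazone and vehicle in the number 1 libraries (horizontal) and the number 2 libraries (vertical) of WT inguinal fat, 1 point per tested gene, red for genes called higher, blue for genes called lower and grey for the rest; short RNA genes listed at 0 in a library and 12 genes beyond 3.2 on either axis are not drawn. Called genes lie in the quadrants where both pairs moved the same way, which the blocked test selects for.

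The DNA letters that the PPARg-RXR pair is known to favour, AGGTCA, then any 1 base, then AGGTCA again, were looked for on both strands in windows of 300 bases, from 250 before to 50 after each gene's start in the RefSeq table for GRCm38.p6, the assembly also called mm10. At most 2 letters were allowed to differ outside the free base. A match was found in 33 of 781 promoters of genes that rose (4.23%; 626 genes had a promoter in the table), in 2.99% of promoters of all tested genes, in 3.86% of all 32851 promoters, and in 0 of the 10 promoters that the table holds for 8 of the 12 genes with the largest rises. A match describes the sequence only. The window of Pbld1, shown as a match with fewer differing letters in a gene that rose (log2 1.35), and windows from genes of the storage, peroxisomal and mitochondrial groups described after them are printed. They are those of Pbld1 (chr10:63061339-63061638, plus strand), Aqp7 (chr4:41048087-41048386, minus strand), Plin2 (chr4:86670010-86670309, minus strand), Cat (chr2:103485104-103485403, minus strand) and Etfa (chr9:55512194-55512493, minus strand), each 5′ to 3′ on the gene's strand with the match in capitals. The Pbld1 match differs in 1 letter and the others in 2. Those of Aqp7, Plin2 and Etfa lie on the opposite strand, and that of Aqp7 is shared by a second, overlapping window of the gene. Among genes that rose, Apol7c held a match with 0 differing letters and Olfm2 another with 1. Only windows that hold a match are printed. Genes of the same groups whose windows held none include Acaa1b, Ehhadh, Acadvl, Hadha, Hadhb, Agpat2, Acsl1, Slc27a1, Cidec, Plin5, Fitm2, Dlat and Pcx.
Pbld1: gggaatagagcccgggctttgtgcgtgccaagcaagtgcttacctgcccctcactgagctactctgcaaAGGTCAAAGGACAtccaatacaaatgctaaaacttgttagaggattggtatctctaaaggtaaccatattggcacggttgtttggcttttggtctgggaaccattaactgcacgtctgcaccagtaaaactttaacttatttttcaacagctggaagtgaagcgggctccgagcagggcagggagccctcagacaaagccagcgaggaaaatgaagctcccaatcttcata
Aqp7: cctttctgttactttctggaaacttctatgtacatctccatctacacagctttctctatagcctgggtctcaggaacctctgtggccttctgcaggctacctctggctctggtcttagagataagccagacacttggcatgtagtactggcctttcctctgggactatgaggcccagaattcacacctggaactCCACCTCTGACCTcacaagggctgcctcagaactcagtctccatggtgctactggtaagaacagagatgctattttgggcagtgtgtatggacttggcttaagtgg
Plin2: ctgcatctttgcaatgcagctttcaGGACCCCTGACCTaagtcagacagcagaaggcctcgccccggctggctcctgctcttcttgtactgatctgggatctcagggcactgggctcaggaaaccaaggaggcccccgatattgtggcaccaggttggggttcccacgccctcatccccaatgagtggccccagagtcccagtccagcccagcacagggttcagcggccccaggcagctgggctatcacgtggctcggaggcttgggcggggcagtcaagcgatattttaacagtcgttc
Cat: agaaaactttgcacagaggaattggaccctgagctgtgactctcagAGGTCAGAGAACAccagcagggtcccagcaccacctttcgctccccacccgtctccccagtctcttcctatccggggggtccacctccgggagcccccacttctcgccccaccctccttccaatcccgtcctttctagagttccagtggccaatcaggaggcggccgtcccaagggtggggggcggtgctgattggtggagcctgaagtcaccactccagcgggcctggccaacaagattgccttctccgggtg
Etfa: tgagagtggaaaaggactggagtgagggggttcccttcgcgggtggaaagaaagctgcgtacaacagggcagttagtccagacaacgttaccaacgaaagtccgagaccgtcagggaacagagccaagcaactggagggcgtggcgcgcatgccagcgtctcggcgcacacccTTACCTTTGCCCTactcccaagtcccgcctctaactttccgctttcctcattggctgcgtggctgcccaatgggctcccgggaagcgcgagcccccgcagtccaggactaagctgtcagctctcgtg

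The receptor itself did not pass the test. Pparg was at 139 and 74.2 FPKM in rosiglitazone libraries 1 and 2, against 130 and 63.9 FPKM in vehicle libraries 1 and 2 (log2 0.15 ± 0.10 SE, adjusted p = 0.43). Of 19 genes for PPARs, RXRs and their cofactors, 4 rose and 1 fell, with a median log2 change of 0.10. Ppargc1b, a coactivator of mitochondrial genes, rose by 0.55, and Rxrg, a partner receptor, rose by 0.43. Nr1h3, which encodes the oxysterol receptor LXR alpha, rose by 0.42 and Ppara, the fatty acid receptor of liver and brown fat, by 0.39. Ppard, which encodes the third PPAR, fell by 0.43 on the log2 scale. Ppargc1b lay at the threshold (limma adjusted p = 0.049). It lost its call on log2(FPKM + 0.1) (0.079), after rescaling (0.083) and without the block (0.196). Rxrg (0.195), Nr1h3 (0.768) and Ppard (0.338) also lost theirs without the block, and Nr1h3 after rescaling (0.108).

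On the log2(FPKM + 1) scale, and leaving out genes listed at 0, the gene with the largest rise was Rbp7, a retinol-binding protein made by the capillary endothelium of fat (chromosome 4, 149449687 to 149466462). It was at 386 and 518 FPKM with rosiglitazone, against 76.4 and 99.3 FPKM with vehicle, a log2 change of 2.35 ± 0.10 (adjusted p = 9.2e-06). Ephx2, the soluble epoxide hydrolase that converts fatty acid epoxides to diols (chromosome 14, 66084372 to 66124522), was at 569 and 428 FPKM with rosiglitazone, against 127 and 85.9 FPKM with vehicle (2.23 ± 0.13, adjusted p = 5.5e-05). The lowest rosiglitazone library was above the highest vehicle library for both genes. Elovl3, an elongase of very long chain fatty acids known from brown fat, was at 11.2 and 8.74 FPKM with rosiglitazone and at 1.74 and 1.04 FPKM with vehicle (2.2 ± 0.16). Sptlc3, a subunit of serine palmitoyltransferase, the enzyme that starts sphingolipid synthesis, was at 3.93 and 2.77 FPKM with rosiglitazone, against 0.0917 and 0.0619 FPKM with vehicle (2.0 ± 0.15). As a plain ratio of mean FPKM, Sptlc3 was 43.6-fold higher, Elovl3 7.17-fold, Chrna2 5.56-fold and Rbp7 5.14-fold.

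Slc27a1, a fatty acid transport protein, was at 566 and 343 FPKM with rosiglitazone and at 158 and 87.7 FPKM with vehicle (1.89 ± 0.20). Acaa1b, a peroxisomal thiolase with a close paralog that could share its reads, was at 98.9 and 133 FPKM with rosiglitazone, against 25.4 and 36.9 FPKM with vehicle (1.87 ± 0.11). Chrna2, an acetylcholine receptor subunit known from beige fat cells, was at 6.95 and 7.62 FPKM with rosiglitazone and at 1.29 and 1.34 FPKM with vehicle (1.84 ± 0.14). Each of these 3 genes was higher in both rosiglitazone libraries than in either vehicle library. Fkbp5, a co-chaperone of steroid receptors, rose by 1.83 ± 0.19. Pdk4, the kinase that shuts pyruvate dehydrogenase, rose by 1.76 ± 0.21, and Chchd10, a protein of the mitochondrial intermembrane space, by 1.70 ± 0.28. Reep6, which shapes the endoplasmic reticulum, rose by 1.64 ± 0.13. The genes Slc27a1, Fkbp5 and Pdk4 passed in each fit with a library left out but not without the block; Chchd10 passed neither without the block nor without rosiglitazone library 1, rosiglitazone library 2 or vehicle library 1.

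**Figure D2:**
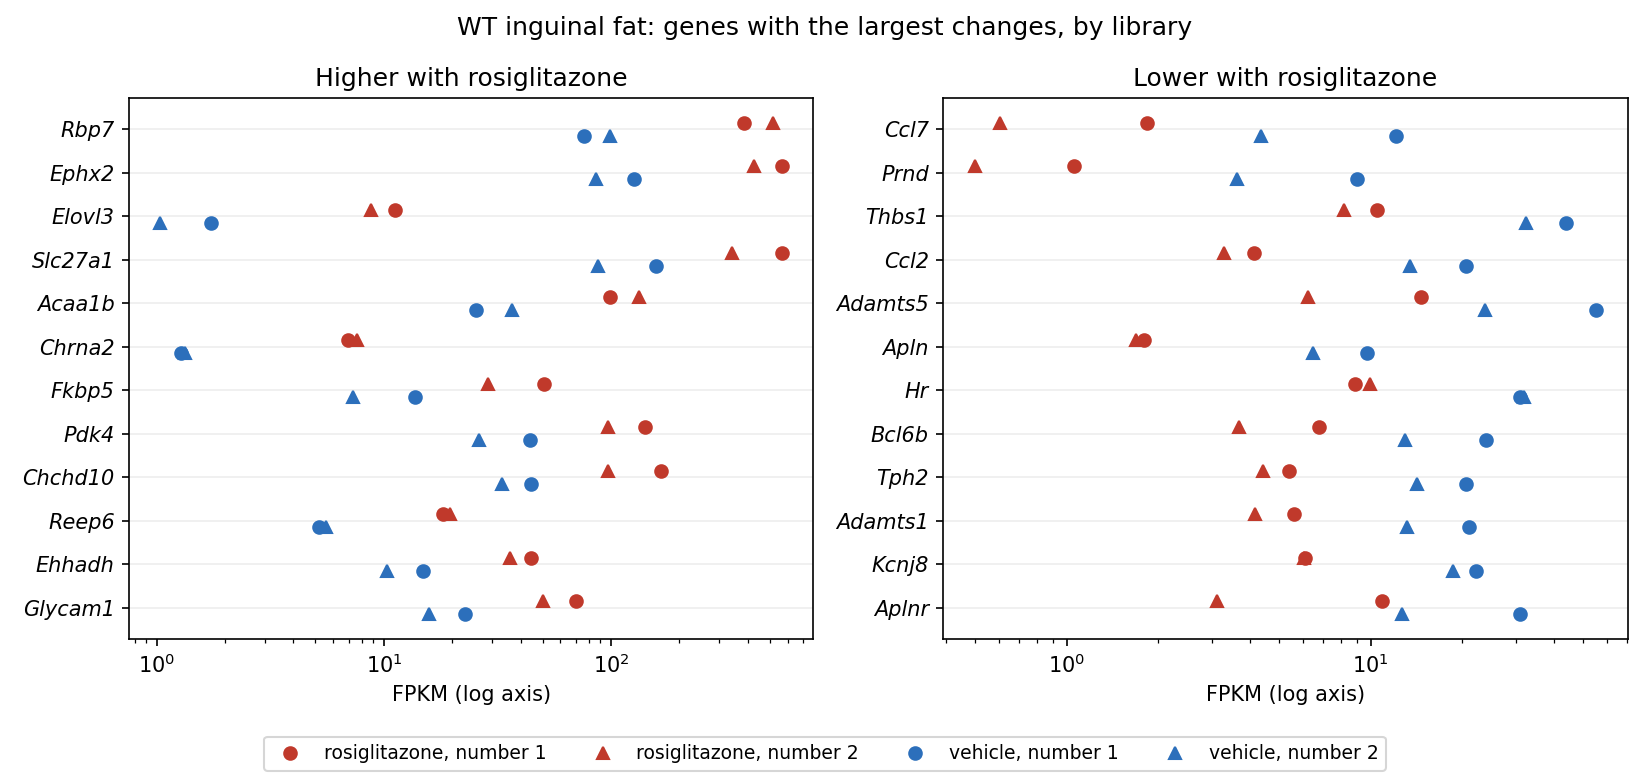
FPKM on a log axis in each of the 4 WT inguinal fat libraries for the 12 genes with the largest rises (left) and the 12 with the largest falls (right) among called genes whose libraries do not overlap between treatments and reach a mean of 5 FPKM in a treatment; red for rosiglitazone, blue for vehicle, circles for number 1 and triangles for number 2. Rbp7 sat at 386 and 518 FPKM with rosiglitazone, against 76.4 and 99.3 FPKM with vehicle.

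Genes that make and store triglyceride rose. Of 15 genes of glycerol supply and triglyceride assembly, 8 rose and 1 fell, with a median log2 change of 0.64 beside 0.03 over all tested genes. Gpd1, which makes glycerol 3-phosphate from glucose, was at 1542 and 1567 FPKM with rosiglitazone, against 636 and 545 FPKM with vehicle (1.40 ± 0.09, adjusted p = 5.5e-05). Agpat2, which adds the next acyl chain and is mutated in a human lipodystrophy, was at 784 and 982 FPKM with rosiglitazone and at 412 and 457 FPKM with vehicle (1.01 ± 0.10). Both genes were separated between treatments in both pairs. Aqp7, the glycerol channel of fat cells, was at 138 and 51.2 FPKM with rosiglitazone and at 77.5 and 24.1 FPKM with vehicle (0.94 ± 0.24, adjusted p = 0.039), so its groups overlapped and its rise was seen within numbers. Mogat2, an acyltransferase of the monoacylglycerol pathway, fell to 2.18 and 2.84 FPKM with rosiglitazone, against 5.23 and 6.27 FPKM with vehicle (-0.95 ± 0.12). Dgat1, one of the enzymes of the last step, rose by 0.87, while Dgat2, the other, had a log2 change of -0.16 (adjusted p = 0.51). Aqp7 lost its call without the block and with 1 block over both depots.

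Of 13 measured genes of lipid droplet coats and droplet growth, 6 rose and 1 fell (median 0.40). Cidec, which fuses droplets into a single large one, was at 4003 and 5212 FPKM with rosiglitazone, against 2286 and 2550 FPKM with vehicle (0.92 ± 0.09). Plin5, which ties droplets to mitochondria, rose by 0.90, Fitm2, which helps droplets bud, by 0.78, and Plin2, the general droplet coat, by 0.68. Plin1, the main coat of the mature fat cell, had a log2 change of 0.19 (adjusted p = 0.48). Plin3 (0.05) and Plin4 (0.02) did not pass either. Hilpda, an inhibitor of the triglyceride lipase ATGL, moved the other way, at 11.5 and 11.1 FPKM with rosiglitazone and at 26.7 and 26.1 FPKM with vehicle (-1.16 ± 0.11, adjusted p = 0.00047). The lipase itself, Pnpla2, was at 1513 and 1077 FPKM with rosiglitazone, against 759 and 579 FPKM with vehicle (0.94 ± 0.12). Plin5, Fitm2, Plin2 and Pnpla2 lost their calls without the block.

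Among 15 genes of lipolysis and its control, 4 rose and 1 fell (median 0.28). Besides Pnpla2 these were Hcar1, the lactate receptor that restrains lipolysis (1.27), Mgll, the monoglyceride lipase (0.65), Adora1, an adenosine receptor that also restrains it (0.51), and, falling, the prostaglandin E receptor Ptger3 (-0.84). Of 16 genes of fatty acid uptake and activation, 7 rose and 0 fell (median 0.42). Beyond Slc27a1 they included Acsl1, the main acyl-CoA synthetase of fat, at 1301 and 832 FPKM with rosiglitazone and at 751 and 416 FPKM with vehicle (0.89 ± 0.13). The cytosolic fatty acid carriers Fabp3 and Fabp5 rose by 0.85 and 0.84. The fatty acid translocase Cd36 had a log2 change of 0.38 (adjusted p = 0.53). The calls of Hcar1, Mgll, Ptger3, Acsl1, Fabp3 and Fabp5 were lost without the block.

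Lipogenic genes were mixed, with 9 of 22 that rose and 2 that fell (median 0.31). Acacb, the acetyl-CoA carboxylase isoform placed at mitochondria, was at 29.9 and 29.1 FPKM with rosiglitazone, against 12.3 and 10.7 FPKM with vehicle (1.29 ± 0.08, adjusted p = 5.5e-05). The citrate carrier Slc25a1 rose by 0.93, the malic enzyme Me1 by 0.87 and Thrsp, a nuclear protein of lipogenic tissue, by 0.82. Fatty acid synthase, Fasn, rose by 0.69. Scd2, a desaturase, fell by 0.78 and Mlxipl, which encodes the carbohydrate sensor ChREBP, fell by 0.56 on the log2 scale. Slc25a1, Me1 and Thrsp lost their calls without the block.

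Genes that burn fatty acids rose in larger shares. Of 20 genes of mitochondrial fatty acid oxidation, 16 rose and 0 fell (median 0.78). Cpt1b, the muscle and brown fat form of the carnitine palmitoyltransferase at the outer membrane, was at 21.7 and 7.60 FPKM with rosiglitazone and at 7.73 and 2.77 FPKM with vehicle (1.28 ± 0.26, adjusted p = 0.014). Number 2 with rosiglitazone was just under number 1 with vehicle, and within each number rosiglitazone was higher. Cpt1b lost its call without the block and with 1 block over both depots. Acadvl, Hadha and Hadhb, the enzymes that take long acyl chains through the cycle, rose by 1.06, 1.03 and 1.03. Hadha was at 194 and 216 FPKM with rosiglitazone, against 99 and 101 FPKM with vehicle. Cpt1a, the liver form of the transferase, was at 49.1 and 27.8 FPKM with rosiglitazone and at 52.1 and 27.5 FPKM with vehicle and did not pass (log2 -0.03, adjusted p = 0.95).

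In the peroxisome, 10 of 19 genes rose and 0 fell (median 0.59). Beside Ephx2 and Acaa1b, Ehhadh, the bifunctional enzyme, was at 44.4 and 36.1 FPKM with rosiglitazone and at 14.8 and 10.3 FPKM with vehicle (1.62 ± 0.12, adjusted p = 0.00013). Catalase, Cat, which breaks down hydrogen peroxide, was at 692 and 324 FPKM with rosiglitazone and at 371 and 168 FPKM with vehicle (0.92 ± 0.12). For Cat the groups overlapped, because both number 2 libraries were lower.

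The citrate cycle and respiratory chain moved with them. Of 21 genes of the citrate cycle and pyruvate entry, 15 rose and 0 fell (median 0.67), and of 20 respiratory chain subunits 17 rose and 0 fell (median 0.65). Pyruvate carboxylase, Pcx, which refills the cycle and feeds citrate to lipogenesis, was at 492 and 576 FPKM with rosiglitazone, against 277 and 280 FPKM with vehicle (0.93 ± 0.08), and its treatments did not overlap. Dlat, a core subunit of pyruvate dehydrogenase, rose by 0.92 beside its inhibitor Pdk4. Cytochrome c, Cycs, rose by 1.08, and Cox7a1, Uqcrfs1 and Atp5o, subunits of complexes IV, III and V, by 0.93, 0.90 and 0.83. Of 20 genes of branched-chain amino acid breakdown, 7 rose and 0 fell (median 0.38), among them Hibch (0.83), Bckdhb (0.76), Bckdha (0.64) and Hibadh (0.59). The calls of Dlat, Cycs, Cox7a1, Uqcrfs1, Hibch, Bckdhb and Hibadh were lost without the block. Those of Dlat, Uqcrfs1, Bckdhb and Hibadh were also lost with 1 block over both depots.

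Genes known from brown and beige fat rose in 7 of 15 that could be tested and 0 fell (median 0.85). Besides Elovl3 and Cpt1b, Cox8b, a cytochrome oxidase subunit of brown fat and muscle, was at 157 and 216 FPKM with rosiglitazone, against 84.4 and 99.8 FPKM with vehicle (1.0 ± 0.09, adjusted p = 0.00025). Cited1, a beige cell marker, was at 1.96 and 1.79 FPKM with rosiglitazone and at 0.368 and 0.493 FPKM with vehicle (1.01 ± 0.15). Ucp1, the uncoupling protein that releases the proton gradient as heat, was at 29.4 and 16.3 FPKM with rosiglitazone and at 15.7 and 7.22 FPKM with vehicle (0.97 ± 0.17, adjusted p = 0.0079). Its lower rosiglitazone library was just above its higher vehicle library. The regulators Ppargc1a and Prdm16 had log2 changes of -0.02 and -0.24 and did not pass.

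**Figure D3:**
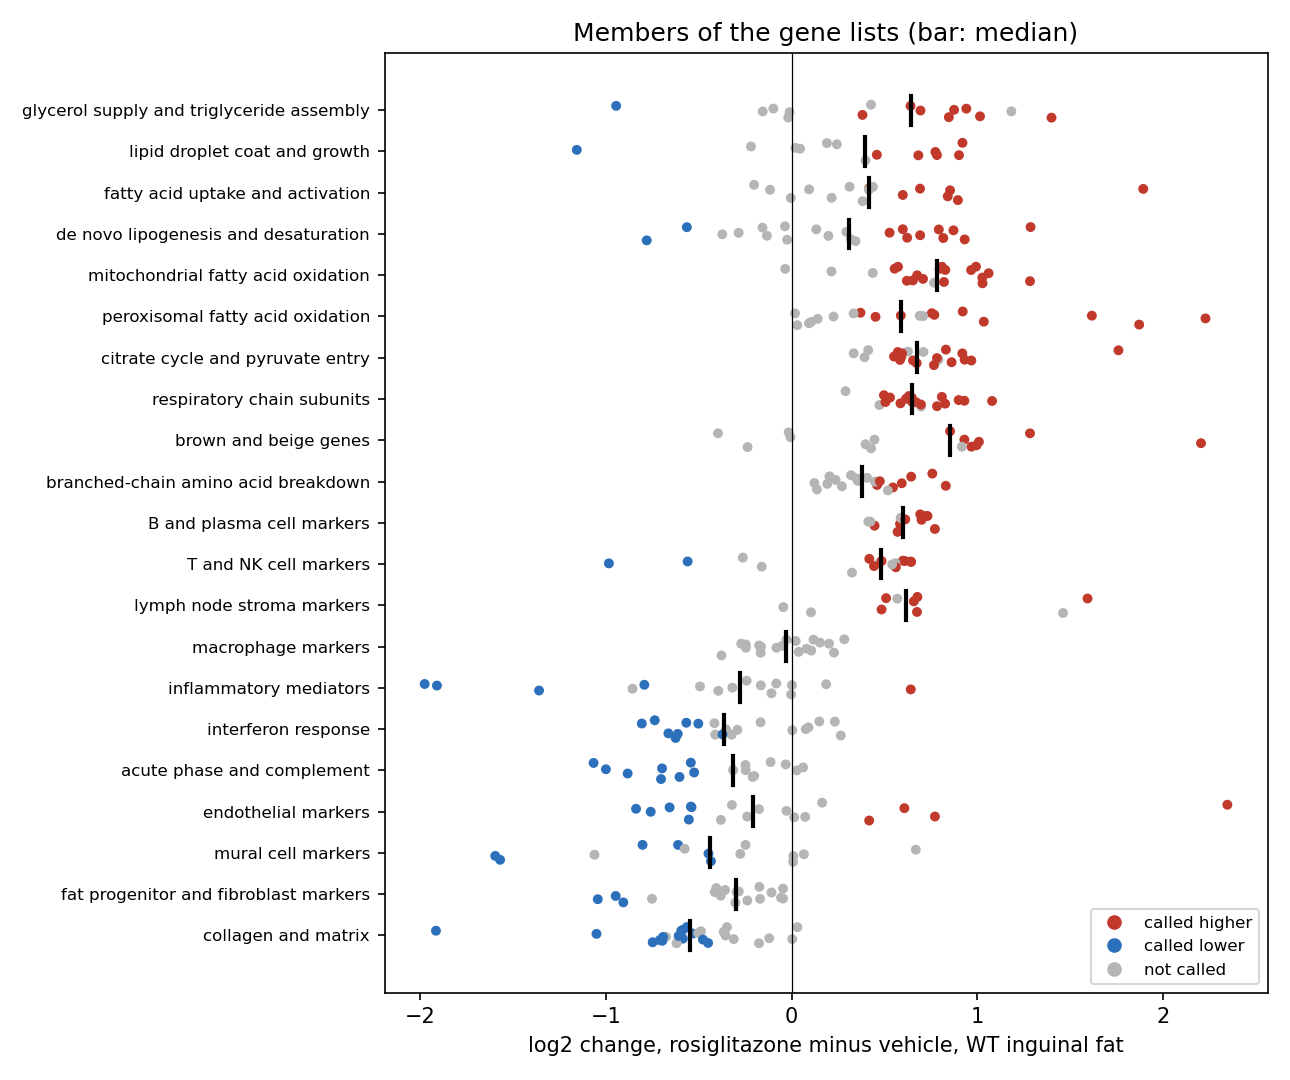
Log2 change with rosiglitazone in WT inguinal fat of each tested member of 21 gene lists, 1 point per gene and a black bar at the list's median; red points were called higher, blue called lower and grey neither. Lists of fatty acid oxidation, citrate cycle and respiratory chain sit to the right with medians of 0.65 to 0.78, and collagen and matrix genes to the left with a median of -0.55.

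Secreted products of the fat cell did not move as a block. Of 16 adipokines and related genes, 3 rose and 4 fell (median -0.10). Adipoq was at 2734 and 2691 FPKM with rosiglitazone, against 2152 and 2027 FPKM with vehicle, which did not pass (0.38 ± 0.12, adjusted p = 0.082). Leptin, Lep, was at 720 and 464 FPKM with rosiglitazone and at 1171 and 607 FPKM with vehicle (-0.55 ± 0.15, adjusted p = 0.049), with overlapping groups. Adipsin, Cfd, a complement protease, fell to 551 and 483 FPKM with rosiglitazone, against 1059 and 794 FPKM with vehicle (-0.83 ± 0.19). Angptl4, an inhibitor of lipoprotein lipase, rose by 0.69. Cfd and Angptl4 lost their calls without the block. Fgf21, a hormone of fasting and of drug-treated fat, was at 3.16 and 3.54 FPKM with rosiglitazone, against 2.02 and 1.70 FPKM with vehicle (0.61 ± 0.10).

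Of 16 genes known to follow phosphorylation of PPARg at a serine in obesity, 1 rose and 3 fell (median -0.05). Cidec rose, and Peg10, an imprinted gene, Cfd and Selenbp1 fell by 1.23, 0.83 and 0.54 on the log2 scale. Among 20 genes of insulin signalling and glucose use, 5 rose and 2 fell (median 0.23). Irs2, an insulin receptor substrate, was at 22.3 and 23.9 FPKM with rosiglitazone, against 12.8 and 13.2 FPKM with vehicle (0.78 ± 0.10). Glycogen synthase, Gys1, rose by 0.60 and Slc2a4, the insulin-regulated glucose transporter, by 0.53. Grb14, an inhibitor of the insulin receptor, fell by 0.59 and Trib3, an inhibitor of Akt, fell by 0.54 on the log2 scale. The calls of Peg10, Cfd, Selenbp1, Gys1, Grb14 and Trib3 were lost without the block.

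Of 16 retinol carriers, epoxide hydrolases and cytochromes, 6 rose and 1 fell (median 0.23). The fatty acid hydroxylase Cyp4b1 was at 166 and 188 FPKM with rosiglitazone and at 77.6 and 76.3 FPKM with vehicle (1.19 ± 0.10), and Cyp2e1, an oxidase of ethanol and ketones, rose by 1.09. Aldh1a1, which makes retinoic acid, fell by 0.71 on the log2 scale. Aldh1a7, of the same list, rose by 0.69, at 175 and 176 FPKM with rosiglitazone, against 111 and 106 FPKM with vehicle. Whether these genes shared reads was not tested. In the cholesterol list 0 of 19 rose and 1 fell (median 0.05). Among clock genes 1 of 18 rose, Per2 (0.56), and 1 fell, Bhlhe40 (-0.88). Cell cycle genes had 0 of 20 past the test, with Ccne1 and Mki67 nearest to it (adjusted p = 0.075 and 0.16). In the glutathione and antioxidant list 0 of 20 rose, and Gpx3 (-0.56) and Gstt1 (-0.47) fell. In the stress list 1 of 20 rose, Asns (0.84), and Nupr1 (-0.74) and Trib3 fell. Over all tested genes 6.04% rose and 4.94% fell, so a single call in a list of this size lies near those shares. The calls of Cyp2e1, Per2, Bhlhe40, Gpx3, Gstt1, Asns, Nupr1 and Trib3 were lost without the block.

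Chemokines of monocytes stood among the largest falls. Ccl2 (chromosome 11, 82035577 to 82037452) was at 4.14 and 3.30 FPKM with rosiglitazone, against 20.6 and 13.5 FPKM with vehicle (-1.91 ± 0.22, adjusted p = 0.00098). Its neighbour Ccl7 was at 1.84 and 0.605 FPKM with rosiglitazone and at 12.1 and 4.36 FPKM with vehicle (-1.98 ± 0.19), and lost its call without the block. Nos2, the inducible nitric oxide synthase, was at 1.99 and 1.85 FPKM with rosiglitazone and at 7.15 and 5.89 FPKM with vehicle (-1.36 ± 0.09, adjusted p = 5.8e-05). No library of either treatment overlapped the other for these 3 genes. Of 16 inflammatory mediators 4 fell, Cxcl10 (-0.79) being the other, and 1 rose, Ccl5 (0.64), which T cells make (median -0.28). Cxcl10 and Ccl5 lost their calls without the block.

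Macrophage markers themselves did not pass. None of 19 was called (median -0.03), although Itgam was called lower after rescaling (adjusted p = 0.0093), with iWAT libraries alone (0.038) and with array weights (0.0070), and their summed level was 2376 and 2772 FPKM with rosiglitazone, against 2604 and 2948 FPKM with vehicle. The 2 with the smallest p were the integrin Itgam (-0.38, adjusted p = 0.066) and the receptor Csf1r (-0.17, adjusted p = 0.22). Of 17 genes of lipid-associated macrophages, 3 rose, Fabp5, Plin2 and the lipid receptor Trem2 (0.38), of which the fat cell makes Fabp5 and Plin2 too, and the elastase Mmp12 fell (-0.60). Fabp5, Plin2, Trem2 and Mmp12 lost their calls without the block. In whole tissue, fewer cells of a type and less RNA per cell cannot be told apart.

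Acute phase and complement genes fell in 8 of 17 and 0 rose (median -0.32). Serpina3n, a protease inhibitor, was at 141 and 161 FPKM with rosiglitazone, against 316 and 316 FPKM with vehicle (-1.07 ± 0.08, adjusted p = 0.00017). Haptoglobin, Hp, was at 682 and 1093 FPKM with rosiglitazone and at 1421 and 2099 FPKM with vehicle (-1.0 ± 0.09). Complement C4b fell by 0.88 and Serpina3c, another protease inhibitor, fell by 0.70 on the log2 scale. Both Serpina3 genes have near-identical relatives, so their values are uncertain. Of 20 interferon response genes, 8 fell and 0 rose (median -0.36), led by Rsad2 (-0.81), Ifit3 (-0.74), Oasl2 (-0.66) and Ifit1 (-0.63). The transcription factor Irf1, which acts upstream of such genes, had a log2 change of 0.15 and did not pass. Of 12 neutrophil markers 3 fell, S100a9 (-0.94), Lcn2 (-0.54) and Mmp9 (-0.41). Granule genes of the list were near 0, with Ngp, Camp, Ltf, Elane and Mpo under 1 FPKM in all 4 libraries. Of 10 mast cell markers 1 fell, the receptor Kit (-0.56), and 0 rose, beside 4.94% of all tested genes that fell. Without the block Hp, Serpina3c, Rsad2, Ifit3, Oasl2, Ifit1, S100a9, Lcn2, Mmp9 and Kit lost their calls.

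Vessel genes split. Of 18 endothelial markers 4 rose and 6 fell (median -0.21). The 4 that rose are known from capillaries: Rbp7, the carbonic anhydrase Car4 (0.77), Cd300lg (0.61) and Gpihbp1, which carries lipoprotein lipase to the vessel lumen (0.42). The angiopoietin receptors fell, Tie1 to 23.6 and 28.6 FPKM with rosiglitazone, against 44.3 and 50.5 FPKM with vehicle (-0.84 ± 0.08, adjusted p = 0.00029), and Tek by 0.76 on the log2 scale. Egfl7, Cdh5, Pecam1 and Emcn, which are found in endothelium generally, fell by 0.66, 0.55, 0.54 and 0.54. Kdr, the main VEGF receptor, had a log2 change of 0.07 (adjusted p = 0.81). Car4, Cd300lg and Tek lost their calls without the block.

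Apelin and its receptor, a pair known from growing vessels, fell together. Apln was at 1.79 and 1.69 FPKM with rosiglitazone, against 9.72 and 6.45 FPKM with vehicle (-1.70 ± 0.17, adjusted p = 0.0005). Aplnr was at 10.9 and 3.11 FPKM with rosiglitazone and at 31.1 and 12.7 FPKM with vehicle (-1.58 ± 0.23), and passed only with the block. Bcl6b, an endothelial transcription factor, fell by 1.63 and Prnd, a prion-like gene of endothelium, fell by 1.96 on the log2 scale, both again only with the block.

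Of 14 mural cell markers, 6 fell and 0 rose (median -0.44). Kcnj8, a potassium channel subunit of pericytes, was at 6.10 and 6.04 FPKM with rosiglitazone, against 22.3 and 18.6 FPKM with vehicle (-1.60 ± 0.10, adjusted p = 5.5e-05). Rgs5, a pericyte regulator of G protein signals, was at 31.3 and 15.5 FPKM with rosiglitazone and at 104 and 43.5 FPKM with vehicle (-1.57 ± 0.21). The receptors Pdgfrb and Notch3 fell by 0.80 and 0.61. Of genes shared with smooth muscle, Myh11 fell by 0.45 on the log2 scale, while Tagln, Cnn1 and Des had changes of 0.01, 0.07 and 0.01 and did not pass. Acta2 was at 25.6 and 6.79 FPKM with rosiglitazone, against 63.0 and 13.1 FPKM with vehicle. It was lower in both pairs but did not pass (-1.06 ± 0.42, limma adjusted p = 0.16). Myl9 (-0.28) and, in the other direction, Higd1b (0.67) did not pass either. Rgs5 and Notch3 lost their calls without the block.

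Collagen and matrix genes fell in 14 of 26 and 0 rose (median -0.55). Thbs1, thrombospondin 1, a matrix protein that restrains vessel growth and activates TGF-beta, was at 10.5 and 8.19 FPKM with rosiglitazone, against 43.8 and 32.6 FPKM with vehicle (-1.92 ± 0.12, adjusted p = 5.5e-05). Mmp3, a stromelysin, fell by 1.05 on the log2 scale. The basement membrane collagen Col4a1 was at 254 and 241 FPKM with rosiglitazone and at 449 and 386 FPKM with vehicle (-0.75 ± 0.08), and its partner Col4a2 fell by 0.71. The fibrillar collagens Col1a1 and Col1a2 had log2 changes of -0.37 (adjusted p = 0.055) and 0.00, with Col3a1 at -0.59 and past the test. The aggrecanases Adamts5 and Adamts1 fell by 1.82 and 1.60, only with the block. The calls of Mmp3 and Col4a2 were also lost without the block.

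Of 18 progenitor and fibroblast markers, 3 fell and 0 rose (median -0.30). Fibrillin 1, Fbn1, was at 14.9 and 14.5 FPKM with rosiglitazone, against 32.4 and 30.3 FPKM with vehicle (-1.04 ± 0.09), and Cd34 and Lum fell by 0.95 and 0.91. Pdgfra, Dpp4 and Pi16, which mark these cells, had changes of -0.30, -0.05 and -0.24 and did not pass. Beside these falls, the fat cell identity list had 5 of 18 that rose and 2 that fell (median 0.31), with a summed level of 15910 and 15930 FPKM in rosiglitazone libraries, against 12970 and 11370 FPKM in vehicle libraries. What a shift in the share of fat cell RNA adds to the falls was not tested. Immediate early genes, which respond to handling and to growth signals, fell in 5 of 17 and rose in 0 (median -0.29). They were led by Egr1 (-1.30), Nr4a1 (-0.91), Dusp1 (-0.88) and Fosl2 (-0.74). The calls of Cd34, Lum, Egr1, Nr4a1, Dusp1 and Fosl2 were lost without the block.

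The remaining large falls belong to no list. Hr, a nuclear corepressor known from skin, was at 8.88 and 9.95 FPKM with rosiglitazone, against 31.0 and 31.9 FPKM with vehicle (-1.64 ± 0.09, adjusted p = 5.5e-05). Tph2, the neuronal tryptophan hydroxylase of serotonin synthesis, was at 5.40 and 4.43 FPKM with rosiglitazone and at 20.5 and 14.2 FPKM with vehicle (-1.62 ± 0.12). Of 5 erythrocyte genes, Hba-a1 fell (-0.47), and of 9 nerve and Schwann cell genes 1 rose and S100b, which fat cells also make, fell (-1.01). All 7 epididymis genes tested were under 0.1 FPKM in each library. No epithelial marker (11 tested) or mesothelial marker (10 tested) passed, with the mesothelial list's Cldn15 at 54.9 and 56.5 FPKM with rosiglitazone, against 51.6 and 48.9 FPKM with vehicle. Under other settings Lrrn4 was called higher in 4 (adjusted p = 0.0042 to 0.044), Prlr in 3 (0.0045 to 0.031) and Esr1 in 3 (0.022 to 0.026). Of 13 skeletal muscle genes, Acta1 fell, at 8.36 and 11.2 FPKM with rosiglitazone, against 19.7 and 21.6 FPKM with vehicle (-1.02), and Myl1 rose, at 88.4 and 65.6 FPKM with rosiglitazone, against 69.2 and 49.4 FPKM with vehicle (0.37), while Ckm was at most 0.277 FPKM. Of 6 skin genes Sbsn fell, at 12.7 and 13.3 FPKM with rosiglitazone, against 21.5 and 20.8 FPKM with vehicle (-0.66). Among 18 abundant reference genes Tuba1a fell (-0.64) and Rpl13a rose (0.41), beside 11% of all tested genes that rose or fell. The calls of Hba-a1, S100b, Myl1, Sbsn and Rpl13a were lost without the block.

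Genes of lymphocytes and of the lymph node were higher with rosiglitazone. Of 12 B and plasma cell markers 9 rose and 0 fell (median 0.60), of 16 T and NK cell markers 8 rose and 2 fell (median 0.48), and of 10 lymph node stroma markers 6 rose and 0 fell (median 0.61). The B cell kinase Blk was at 11.5 and 11.8 FPKM with rosiglitazone, against 7.16 and 6.44 FPKM with vehicle (0.70 ± 0.10, adjusted p = 0.0026). The T cell kinase Lck was at 25.3 and 30.7 FPKM with rosiglitazone and at 17.5 and 17.5 FPKM with vehicle (0.64 ± 0.12). Glycam1, a ligand of L-selectin made by the high endothelial venules of lymph nodes (chromosome 15, 103562759 to 103565081), was at 70.5 and 50.3 FPKM with rosiglitazone, against 22.9 and 15.9 FPKM with vehicle (1.59 ± 0.15, adjusted p = 0.0004). Rosiglitazone libraries were above vehicle libraries for all 3 genes. The fallers were genes of killer cells, Gzma at 1.11 and 1.43 FPKM with rosiglitazone and at 3.60 and 3.35 FPKM with vehicle (-0.98 ± 0.14), and Ncr1 (-0.56). Of 13 genes in the list of MHC class II presentation 2 rose, H2-DMb2 (0.65) and Flt3 (0.40), a receptor that is not itself a class II gene. The class II genes H2-Aa, H2-Ab1 and H2-Eb1 had changes of 0.09, 0.06 and 0.02 and did not pass. Lck, H2-DMb2 and Flt3 lost their calls without the block. The summed B and plasma cell level was 373 and 308 FPKM with rosiglitazone and 253 and 183 FPKM with vehicle. How much lymph node each pad held is not given by the labels, and its part in these rises was not tested.

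The response was then set against that of K107R iWAT, in 4 further libraries. The difference, WT minus K107R, was positive in 394 of 13665 genes (2.88%) and negative in 81 (0.593%) at an adjusted p under 0.05 of the interaction, 475 in all (3.48%). In K107R iWAT alone, 9.67% of genes rose and 8.09% fell (17.8% in all), and in WT eWAT alone 1.57% rose and 2.3% fell (3.87% in all). Among the largest positive differences, of genes reaching a group mean of 5 FPKM, were those of Glycam1 (3.02 ± 0.22), the surface antigen Ly6d (2.63), the IgM receptor Fcmr (2.50) and the T cell factor Tcf7 (2.45). Glycam1, which rose in WT iWAT, was at 6.84 and 4.03 FPKM in K107R with rosiglitazone, against 19.6 and 12.9 FPKM in K107R with vehicle. The difference was positive in 11 of 12 B and plasma cell markers, 11 of 16 T and NK cell markers, with 1 negative, and 5 of 10 lymph node stroma markers. In K107R iWAT alone the medians of these lists were -1.25, -1.03 and -0.79. Skeletal muscle genes also fell there, 11 of 13 with a median of -1.36 and the part of such other tissue in the interaction was not tested.

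Fat cell genes mostly did not differ by this test. None of the genes of triglyceride assembly, droplet coats and growth, lipolysis, citrate cycle or respiratory chain was called for a difference. The list medians in WT and K107R iWAT were 0.64 and 0.79 for triglyceride assembly, 0.78 and 0.93 for mitochondrial oxidation, and 0.65 and 0.93 for the respiratory chain. Rbp7 rose by 2.35 and 2.37 and Ephx2 by 2.23 and 2.18, with differences of -0.03 ± 0.14 and 0.04 ± 0.19. Some genes differed. Sptlc3, at 3.93 and 2.77 FPKM in WT rosiglitazone libraries, was at 54.9 and 39.6 FPKM in K107R rosiglitazone libraries, against 1.68 and 0.961 FPKM in K107R vehicle libraries (difference -2.38 ± 0.21, adjusted p = 0.00032). That difference rests on the pseudocount of 1: with 0.1 it was -0.82 (adjusted p = 0.16), and the plain FPKM ratios of rosiglitazone to vehicle were 42.8 and 44.8 in WT and 32.7 and 41.2 in K107R. Hsd17b11, a droplet-bound dehydrogenase, rose by 0.86 in WT and 2.69 in K107R (-1.83), Fabp3 by 0.85 and 2.43 (-1.58), Elovl3 by 2.2 and 3.77 (-1.56) and Ehhadh by 1.62 and 2.50 (-0.88). Thrsp rose in WT by 0.82 and in K107R was at 53.3 and 72.5 FPKM with rosiglitazone, against 94.3 and 115 FPKM with vehicle (difference 1.55 ± 0.12, adjusted p = 0.00019). The matricellular gene Cyr61 fell in WT by 1.49 and had a change of 0.14 in K107R (difference -1.63), and the calcium binder S100g and the matrix gene Papln had differences of -1.74 and -1.59. Without the block 129 genes differed, 119 positive and 10 negative, and Tcf7, Hsd17b11, S100g, Cyr61 and Papln were not among them. The count of 475 became 315 and 265 without WT rosiglitazone libraries 1 and 2, 268 and 246 without WT vehicle libraries 1 and 2, 269 and 308 without K107R rosiglitazone libraries 1 and 2, and 281 without K107R vehicle library 1; S100g lost its call without WT rosiglitazone library 2 and without WT vehicle library 2.

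**Figure D4:**
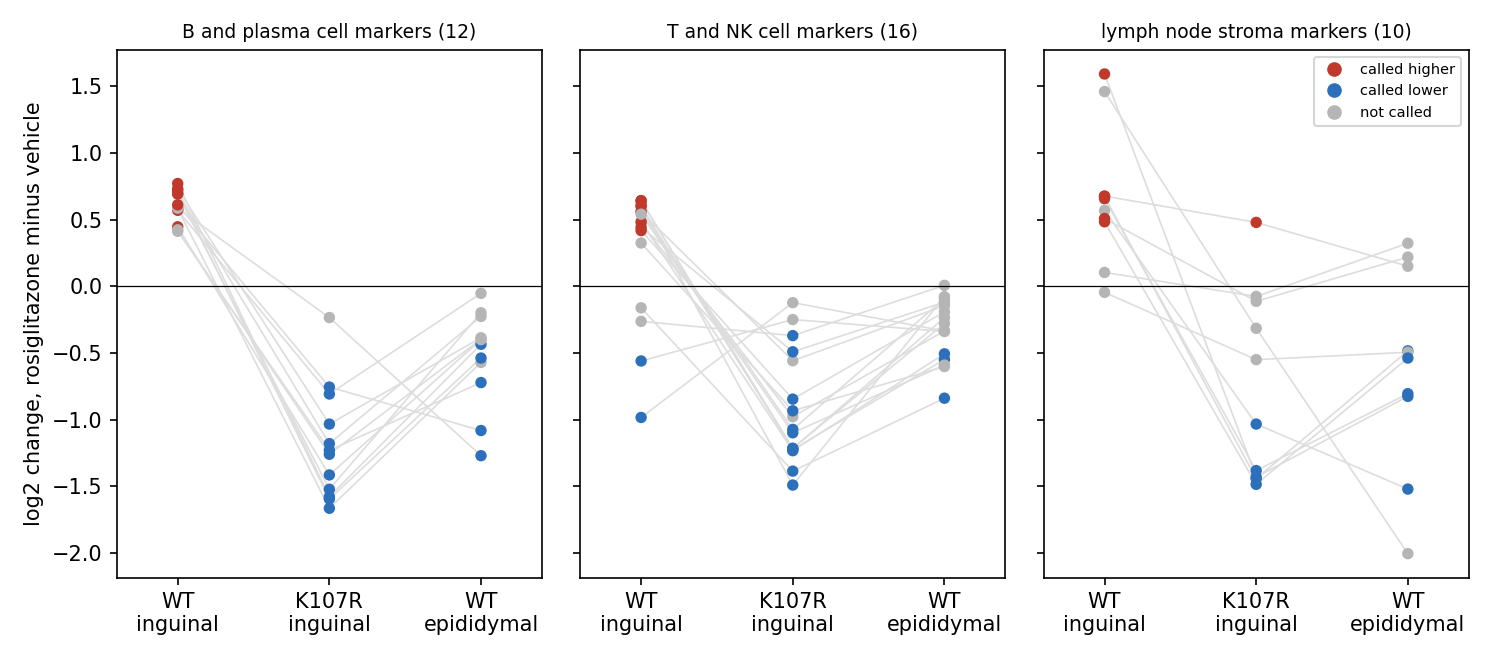
Log2 change with rosiglitazone of each tested B and plasma cell, T and NK cell and lymph node stroma marker in WT inguinal, K107R inguinal and WT epididymal fat, lines joining a gene's 3 values; red was called higher, blue lower and grey neither. The list medians were 0.60, 0.48 and 0.61 in WT inguinal fat and -1.25, -1.03 and -0.79 in K107R inguinal fat.

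Against WT eWAT, the other depot of WT mice under the same treatment, the response differed in 129 genes (0.944%), 86 with a positive difference, iWAT minus eWAT (0.629%), and 43 with a negative one (0.315%). Rescaling each library gave 136 and 125. The largest positive differences were those of the B cell chemokine Cxcl13 (2.09 ± 0.23), Mzb1 of plasma cells (1.69), Ly6d (1.64), the MHC gene H2-M2 (1.60) and the T zone chemokine Ccl19 (1.46), and 8 of 12 B and plasma cell markers had one. Glycam1, listed at 0 in an eWAT library with rosiglitazone, is given no difference. The largest negative differences were those of genes that rose in eWAT. Spp1, osteopontin, was at 6.06 and 5.91 FPKM with rosiglitazone and at 6.25 and 6.08 FPKM with vehicle in iWAT, and in eWAT at 309 and 308 FPKM with rosiglitazone, against 86.0 and 88.1 FPKM with vehicle (difference -1.85 ± 0.12, adjusted p = 0.00046). The macrophage genes Arg1 (-1.74) and Cd5l (-1.68) and the haemoglobin genes Hba-a1 (-1.55) and Hbb-b1 (-1.52) followed. Hilpda fell in iWAT, while in eWAT it was at 37.4 and 35.5 FPKM with rosiglitazone and at 28.9 and 27.7 FPKM with vehicle (difference -1.51 ± 0.16, adjusted p = 0.0056).

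No gene of fatty acid oxidation, citrate cycle or respiratory chain was called for a difference between depots, although the medians were larger in iWAT: 0.78 and 0.40 for mitochondrial oxidation, 0.67 and 0.30 for the citrate cycle and 0.65 and 0.26 for the respiratory chain in iWAT and eWAT, in that order. The comparison rests on few calls. Without the block 4 genes differed, among which Spp1 was the only one of the 10 named. The count was 44 and 20 without iWAT rosiglitazone libraries 1 and 2, 30 and 2 without iWAT vehicle libraries 1 and 2, 8 and 15 without eWAT rosiglitazone libraries 1 and 2, and 4 and 22 without eWAT vehicle libraries 1 and 2; Spp1 passed in each of these fits.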

How the data were processed

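Total RNA (4 ug) from whole fat pads went through a stranded mRNA kit and was read from 1 end over 75 nt (labels' protocols). The authors' deposited FPKM table was made with CASAVA 1.8.2, TopHat2 2.0.12 and Cufflinks 2.2.1 on mm10, per the submitters' processing notes; the role and settings of each tool are not given in the sources used here. FPKM hold no read counts, so no counting error could be given. From it, log2(FPKM + 1) was fitted with limma 3.58.1 (R 4.3.3; trended variance) over all 16 libraries, with 8 group means and the replicate number as a block within each depot. Genes that reached 1 FPKM in 2 or more libraries were tested, with Benjamini-Hochberg adjustment and a threshold of 0.05; fold changes on this scale understate the change of low genes. An exact permutation test of 2 against 2 cannot go below p = 0.333. The block was chosen from the data: deviations from group means correlated at 0.699 to 0.792 over the 6 pairs of iWAT groups (0.754 between the WT groups). This shows an offset that iWAT libraries of a number share, and cannot show that a number pairs samples. The correlation was not computed in eWAT, where the same block was set. There Actb in number 2 libraries was at 261 and 216 FPKM in WT with rosiglitazone and vehicle, and at 938 and 96.9 FPKM in K107R. Those libraries also feed the shared estimate of spread.

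The members and the 46 gene lists were chosen with earlier results of these data known. Genes are named as the 12 largest changes per direction among called genes that do not overlap between treatments and reach a group mean of 5 FPKM, up to 4 called members per list (or the 2 with the smallest p), and 5 genes per direction of each interaction; Pparg is always given, and a short RNA at 0 in a library is named without a fold. Genes named beyond these, among them Sptlc3's WT values beside the largest rises, Ucp1, Lep, Adipoq, Fgf21, Dgat1, Dgat2, Plin1, Cd36, Cpt1a, Irf1, Kdr, Tagln, Col1a1, Pdgfra, Cat, Etfa and Pbld1, were chosen after their values were seen. A few named members are left unreported. Motifs were searched in Python 3.11.15 with pandas 2.3.3, and figures drawn with matplotlib 3.10.9. The model was tested on simulated data. Alternatives were another pseudocount, filters, rescaling, block and weight choices, fewer libraries in the fit and each library left out.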

Additional observations from a re-analysis of the deposited data

Results flagged for a closer look

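In 62 values of named genes, the rosiglitazone response of WT inguinal fat differed from that of another group by the interaction test (limma, adjusted p under 0.05); each value is a difference of log2 changes, with 36 against K107R iWAT and 26 against WT eWAT.

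Against K107R iWAT, WT minus K107R, the difference was positive for genes known from lymphocytes, lymph nodes and antigen presentation: Glycam1 by 3.02, Ly6d by 2.63, Fcmr by 2.50, Tcf7 by 2.45, Cd79b by 2.32, Ltb by 2.12, Cd8b1 by 2.10, Ccl19 by 2.04, H2-DMb2 by 1.88, Blk by 1.88, Lck by 1.87, Ccl5 by 1.86, Pou2af1 by 1.77, Cxcl13 by 1.60, Mzb1 by 1.37, H2-M2 by 1.21 and Flt3 by 1.12. It was also positive for Thrsp (1.55), Fkbp5 (1.23), Tph2 (0.84), Acta1 (0.81) and Hp (0.62). It was negative for Sptlc3 (-2.38 with a pseudocount of 1, and -0.82 with 0.1, adjusted p = 0.16) and for the fatty acid and droplet genes Hsd17b11 (-1.83), Fabp3 (-1.58), Elovl3 (-1.56) and Ehhadh (-0.88). Other negative differences were those of S100g (-1.74), Cyr61 (-1.63), Papln (-1.59), S100a9 (-1.5), Sbsn (-1.30), Lrrn4 (-0.94), Gzma (-0.86), Nr4a1 (-0.73) and S100b (-0.62).

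Against WT eWAT, iWAT minus eWAT, the difference was positive for Cxcl13 (2.09), Mzb1 (1.69), Ly6d (1.64), H2-M2 (1.60), Ccl19 (1.46), H2-DMb2 (1.40), Tcf7 (1.34), Fcmr (1.26), Cd79b (1.26), Lck (1.19), Ltb (1.16), Pou2af1 (1.12), Mmp9 (0.94), Blk (0.93) and Hp (0.83). It was negative for Spp1 (-1.85), Arg1 (-1.74), Cd5l (-1.68), Hba-a1 (-1.55), Hbb-b1 (-1.52), Hilpda (-1.51), Mmp3 (-1.15), Egr1 (-1.01), Kit (-1.0), Hr (-0.77) and Pdgfrb (-0.64).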

How the results depend on the processing

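The replicate block decides how many genes pass: 1501 with it in each depot, 228 without it (all shared) and 953 with 1 block over both depots. The count was 2311 after rescaling, 2775 with array weights, and 402 to 634 with a WT library left out. Of 137 named genes called, 45 passed without the block. For the interaction with genotype the count of 475 became 231 with a mean of 5 FPKM required, 129 without the block, 716 with weights and 246 to 335 with a library left out. For that with depot the 129 became 67 with the stricter filter, 261 after rescaling, 4 without the block, 66 with 1 block, 832 with weights and 2 to 44 with a library left out. Other main counts stayed within 1.5 times. Over the alternatives, values of named genes kept direction and side of the threshold in 1792 cases, lost the call in 396, gained it in 14 and reversed in 1: Crisp1, an uncalled epididymis gene, at -0.00081 without rosiglitazone replicate 2 (-0.00081 to 0.081 with a WT library left out). The cause of these moves was not tested. Of list medians beyond 0.1, that of nerve and Schwann cell genes (0.17) changed sign, to -0.09 under the stricter filter. Depth is unknown, and 2 libraries a group limit precision.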

Other observations

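The groups in this section were put together after their values were seen, so they carry no test as groups and their counts reflect that choice. Over all tested genes 6.04% rose and 4.94% fell. Genes known from sprouting vessels fell in 9 of 14 and 0 rose. Beside Apln and Aplnr, the guidance receptor Plxnd1 was at 22.5 and 21.3 FPKM with rosiglitazone, against 51.9 and 45.9 FPKM with vehicle (log2 -1.12). The tip cell ligand Dll4 was at 10.2 and 12.2 FPKM with rosiglitazone and at 20.3 and 25.2 FPKM with vehicle (-0.96). Nrarp, Efnb2, Nid2, Unc5b and Pgf fell by 1.08, 0.99, 0.97, 0.93 and 0.85. Vegfa had a log2 change of -0.69 and did not pass (limma adjusted p = 0.26).

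Genes known to respond to glucocorticoids went different ways, with 2 of 11 that rose and 3 that fell. Besides Fkbp5, the zinc finger factor Zbtb16 was at 27.7 and 17.1 FPKM with rosiglitazone, against 9.92 and 4.95 FPKM with vehicle (1.5). Hsd11b1, which regenerates active glucocorticoid, was at 47.3 and 27.8 FPKM with rosiglitazone and at 95.0 and 50.2 FPKM with vehicle (-0.91). Mt2 and Dusp1 fell by 0.85 and 0.88, and Per1, Tsc22d3 and Sgk1 had changes of 0.06, 0.45 and -0.21 and did not pass.

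Of 10 glycogen genes 2 rose and 1 fell. Gys2, the liver isoform of glycogen synthase, was at 40.6 and 23.5 FPKM with rosiglitazone, against 18.1 and 9.22 FPKM with vehicle (1.19), and Gys1 rose by 0.60, while the phosphatase subunit Ppp1r3b fell by 0.68 on the log2 scale. Cmklr1, the chemerin receptor, was at 20.7 and 21.7 FPKM with rosiglitazone and at 61.0 and 59.1 FPKM with vehicle (-1.46). Mrc2, a collagen uptake receptor, was at 16.4 and 21.2 FPKM with rosiglitazone and at 50.2 and 57.3 FPKM with vehicle (-1.47). Clstn3 was at 30.1 and 30.5 FPKM with rosiglitazone, against 11 and 10.7 FPKM with vehicle (1.40). In these 3 genes the treatments did not overlap.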
